A study of Mus musculus with 21 samples.

Results

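Cultured mouse mammary fibroblasts were compared for how their transcriptome answers the loss of Hsp90aa1, which encodes the inducible cytosolic chaperone HSP90α. The quantity described is the siHsp90aa1 effect in carcinoma fibroblasts minus the siHsp90aa1 effect in normal fibroblasts, and it uses 12 of the 21 RNA sequencing libraries of the series. Carcinoma fibroblasts (the line CAF1, here CAF) came from mammary tumours of MMTV-PyMT mice, which carry a polyoma oncogene under a viral promoter that acts in mammary epithelium, and normal fibroblasts (the line NF1, here NF) came from mammary glands of FVB/n mice. The 4 groups, with 3 libraries each, were CAF with siHsp90aa1 and vehicle, CAF with control siRNA and vehicle, NF with siHsp90aa1 and TGFβ1, and NF with control siRNA and TGFβ1. All cells were kept in DMEM with 10% serum, were transfected with 100 nM siRNA at 60% confluence, and gave RNA 48 h after transfection. TGFβ1 at 5 ng/mL was added to NF at 5 h after transfection and acted for 43 h. Levels in NF with control siRNA and vehicle, a further group of 3, are given beside the 4 groups where they help. No NF knockdown without TGFβ1 and no CAF culture with TGFβ1 was analysed here, so the origin of the cells and the TGFβ1 treatment cannot be told apart in any difference given here. Each origin is represented by 1 numbered line, and the labels number the replicates as batches 1 to 3 without naming separate cultures or animals, so each p-value covers no more than the spread among these libraries, which may be technical.

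HSP90 is an ATP-driven chaperone that, with a cycle of co-chaperones, holds kinases, receptors and transcription factors in a shape from which they can be activated. Its cytosolic form exists as the inducible HSP90α and the constitutive HSP90β, encoded by Hsp90ab1. TGFβ signals through receptor kinases and SMAD proteins, and in fibroblasts it raises contractile and matrix genes and lowers genes of the resting state. Carcinoma-associated fibroblasts are known for matrix deposition and chemokine secretion.

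Hsp90aa1 was lowered by siHsp90aa1 in both lines. It stood at 122, 85.9 and 58.1 CPM (counts-per-million values, here always scaled by the TMM method) in CAF with siHsp90aa1, against 995, 926 and 726 CPM in CAF controls. The NF libraries with siHsp90aa1 held 40.2, 65.5 and 120 CPM, against 671, 606 and 543 CPM in NF controls. These means are 10.0% of the control in CAF and 12.4% in NF, no knockdown library overlapped a control library, and the difference between the lines was −0.30 ± 0.42 (log2, SE, adjusted p = 0.758 in edgeR). Within replicate numbers 1, 2 and 3 this difference was 1.03, −0.22 and −1.47 on log2 CPM. Hsp90ab1 was at 84.7% of control in CAF and 89.3% in NF, and its difference was −0.08 ± 0.28 (log2, adjusted p = 0.933). The 12 libraries held 35087162 to 70421549 counts, with 1.70% to 2.81% of them on mitochondrial genes. The 10 highest genes took 10.2% to 11.1% of counts in CAF with siHsp90aa1, 8.2% to 9.2% in CAF controls, 5.8% to 7.4% in NF with siHsp90aa1 and 5.7% to 6.7% in NF controls. The part of that share in the results was not tested. Fibroblast markers were high in sum, with 23546.9 to 25509.1 TPM (transcripts-per-million values) in CAF with siHsp90aa1, 19894.6 to 22260.0 TPM in CAF controls, 8280.3 to 10329.2 TPM in NF with siHsp90aa1 and 7531.2 to 10290.5 TPM in NF controls. Col1a1 was the highest of the 11 fibroblast markers, with up to 8793.73 TPM, and 1 of the 11 stayed below 1 TPM in all 12 libraries. Of 31 markers of epithelial, endothelial, immune, pericyte and glial cells, 23 stayed below 1 TPM in all 12 libraries, Cldn5, Cd3e, Kcnj8 and Sox10 were at 0, and none of the 15 tested passed in the difference. The summed epithelial markers reached 15.8 to 22.2 TPM in CAF with siHsp90aa1, 7.3 to 34.7 TPM in CAF controls, 0.7 to 1.1 TPM in NF with siHsp90aa1 and 1.2 to 1.8 TPM in NF controls, and Krt19 was the highest of them with up to 34.5 TPM.

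The siHsp90aa1 effect differed between the lines for 832 of 15230 genes tested (5.46%, edgeR quasi-likelihood test, Benjamini-Hochberg adjusted p under 0.05). In 372 of them (2.44% of genes tested) the CAF effect lay above the NF effect, called higher below, and in 460 (3.02%) it lay below, called lower. Resting fibroblast genes, chemokines and interferon-type genes were among the lower genes, and contractile, matrix and amino acid stress genes among the higher ones. Each line on its own had many changed genes, 3867 in CAF (25.4%), of which 1898 rose (12.5%) and 1969 fell (12.9%), and 4309 in NF (28.3%), of which 2247 rose (14.8%) and 2062 fell (13.5%). Counts of list members in either line are to be read against these shares. Of the 832 genes, 338 passed in NF alone, 343 in CAF alone, 96 in both in opposite directions, 42 in both in 1 direction and 13 in neither line. Most genes changed in both lines moved together, since 1856 of 1952 had 1 direction. The overlap is 50.5% of the CAF calls and 45.3% of the NF calls, and across all genes tested the effects in the lines correlated with a Pearson r of 0.264 and a Spearman rho of 0.453, where genes are not independent replicates and equal replicate numbers share a batch. The difference exceeded 2-fold for 284 genes, 107 higher and 177 lower, and its median size among the 832 was 0.80 (log2). The median standard error over all genes was 0.21 for the difference, against 0.15 for either line alone. At least 1 CPM was reached in all 4 groups by 735 of the 832 genes. In bulk RNA, fewer cells of a state and less RNA per cell cannot be told apart.

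With the replicate number as a block the count was 1871, 829 higher and 1042 lower. With the 12 libraries fitted alone it was 776, of which 261 higher and 515 lower, and with RLE size factors 824, of which 328 higher and 496 lower. It fell to 540 without replicate 2 of CAF with siHsp90aa1, 490 without replicate 2 of CAF controls, 453 and 482 without replicates 1 and 2 of NF with siHsp90aa1, and 490 without replicate 3 of NF controls. The CAF count fell to 2524 without replicate 3 of CAF with siHsp90aa1 and to 2460 without replicate 2 of CAF controls.

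**Figure D1:**
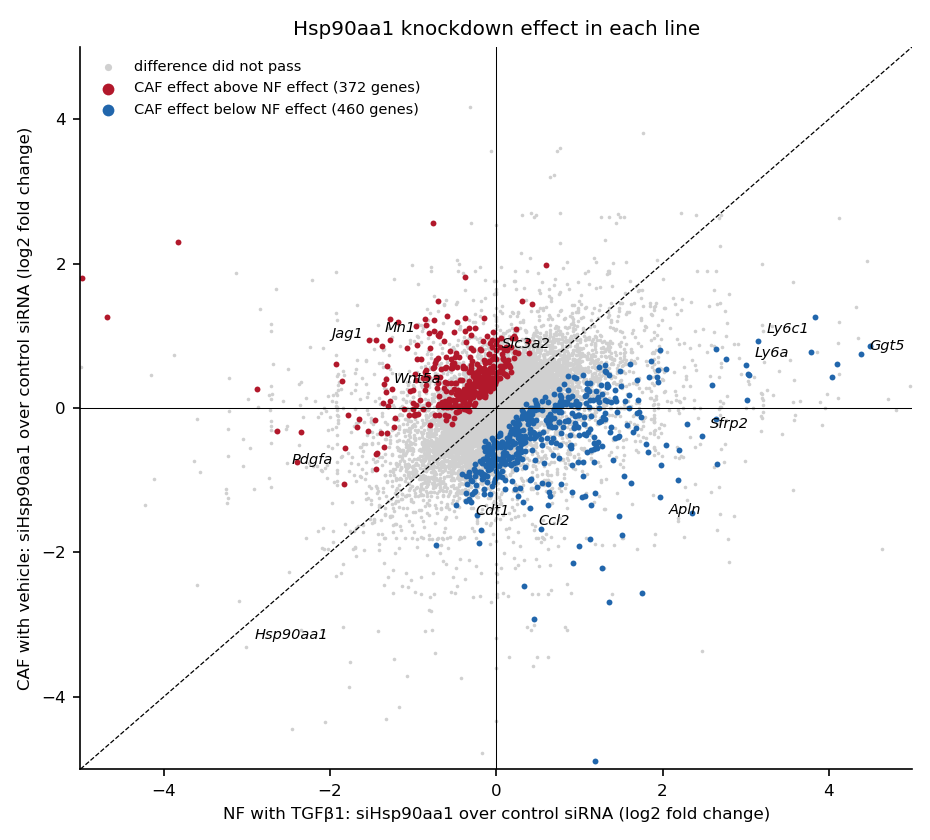
Effect of siHsp90aa1 over control siRNA (log2 fold change) in CAF with vehicle on the vertical axis and in NF with TGFβ1 on the horizontal axis, 1 point per gene, with the dashed line marking equal effects. Red marks the 372 genes with a higher CAF effect and blue the 460 with a lower one, and 43 genes lie outside the drawn range.

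Several resting fibroblast genes were lower in the difference. Of 22 tested, 5 were lower and none higher, and the median difference of the list was −0.97, against 0.01 over all genes. In NF 10 of them rose with the knockdown and none fell, with a median effect of 1.54 (log2). In CAF 4 rose and none fell, with a median of 0.42, and 4 of 22 is near the 12.5% of all genes that rose in CAF. Ly6a encodes the surface antigen Sca-1, a marker of mesenchymal progenitors. It measured 161, 163 and 190 CPM in CAF with siHsp90aa1 and 102, 105 and 135 CPM in CAF controls. Its level was 298, 186 and 168 CPM in NF with siHsp90aa1, against 25.6, 31.4 and 24.2 CPM in NF controls. The knockdown libraries lay above the controls in both lines, and those of NF overlapped the 202, 207 and 233 CPM of NF with vehicle. The CAF effect of 0.59 ± 0.18 and the NF effect of 3.00 ± 0.20 gave a difference of −2.41 ± 0.26 (log2, SE, adjusted p = 0.000113 in edgeR). Ly6c1, a neighbouring member of the Ly6 family, had the like pattern with a difference of −2.22 ± 0.36 (adjusted p = 0.00183 in edgeR). Ly6 genes are similar in sequence, so how reads were shared among them is uncertain. Sfrp2, a secreted modulator of Wnt signalling, did not share the rise in CAF. Its level was 91.6, 73.0 and 157 CPM in CAF with siHsp90aa1 and 96.8, 94.6 and 229 CPM in CAF controls, which overlap. NF with siHsp90aa1 had 148, 129 and 136 CPM, against 22.4, 25.4 and 26.7 CPM in NF controls, and its difference was −2.86 ± 0.49 (log2, adjusted p = 0.00313 in edgeR). Pdgfra, the PDGF receptor α that marks fibroblasts and was the 1 passed gene among 22 receptor tyrosine kinases, was 1118, 886 and 849 CPM in CAF with siHsp90aa1 and 853, 786 and 923 CPM in CAF controls. In NF with siHsp90aa1 it was 655, 591 and 596 CPM, against 268, 249 and 273 CPM in NF controls. CAF libraries overlapped and NF libraries did not, for a difference of −1.07 ± 0.19 (log2, adjusted p = 0.00361 in edgeR). The fifth gene, the matricellular CCN member Wisp2, lies outside the rule by which genes are named and is given for completeness, with a difference of −2.57 ± 0.66 (adjusted p = 0.0284 in edgeR). Ly6a, Ly6c1, Sfrp2 and Pdgfra passed in each of the 12 fits that leave out 1 library.

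Of 21 TGFβ ligands, receptors and SMAD regulators, 1 was lower in the difference, Tgfbr3, which encodes the co-receptor betaglycan, and 2 were higher, Smurf2 and Ltbp2. Ltbp2, a latent TGFβ binding protein of the matrix, had a difference of 0.50 ± 0.12 (log2, adjusted p = 0.0249 in edgeR), kept its call with 1 library left out only without replicate 1 of CAF controls, replicate 3 of NF with siHsp90aa1 or replicate 3 of NF controls, and reached 0.0834. Its call was also lost with no filter on low counts (0.0679). Tgfbr3 measured 526, 496 and 405 CPM in CAF with siHsp90aa1 and 383, 393 and 357 CPM in CAF controls. The NF libraries with siHsp90aa1 held 357, 327 and 280 CPM, against 120, 138 and 125 CPM in NF controls. It rose in both lines, by 0.33 ± 0.11 in CAF and 1.33 ± 0.11 in NF, with a difference of −0.997 ± 0.152 (log2, adjusted p = 0.00123 in edgeR). NF with vehicle held 335, 341 and 402 CPM of it, so the NF controls, which had TGFβ1, were the lowest of the groups. Fgf10, a growth factor that fibroblasts make for epithelium, had this order too, with 104, 98.8 and 82.0 CPM in CAF with siHsp90aa1 and 75.6, 59.6 and 51.7 CPM in CAF controls. It was 16.8, 14.3 and 11.7 CPM in NF with siHsp90aa1 and 3.55, 5.20 and 5.31 CPM in NF controls. It rose in both lines and the difference was −1.005 ± 0.219 (log2, adjusted p = 0.0118 in edgeR).

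The chemokines and cytokines that passed in CAF fell, and most of those that passed in NF rose, but these were not always the same genes. Of 19 chemokines and cytokines tested, 5 were lower in the difference and none higher, with a median of −1.42. In CAF 6 fell and none rose, whereas in NF 9 rose and 2 fell, and with the replicate block the count of lower members was 9. Ccl2, which attracts monocytes, was 37.3, 31.9 and 21.9 CPM in CAF with siHsp90aa1, against 96.8, 74.9 and 67.0 CPM in CAF controls. NF with siHsp90aa1 had 586, 396 and 306 CPM, against 409, 334 and 229 CPM in NF controls. The CAF libraries did not overlap and the NF libraries did. Its CAF effect was −1.39 ± 0.25 (adjusted p = 0.000731), its NF effect 0.41 ± 0.25 (adjusted p = 0.238) and the difference −1.79 ± 0.35 (adjusted p = 0.00668, all log2 in edgeR). Ccl7, a related monocyte attractant, had a CAF effect of −1.22 ± 0.25, an NF effect of 0.65 ± 0.24 that missed the threshold, and a difference of −1.87 ± 0.35 (adjusted p = 0.00464 in edgeR). The neutrophil attractants Cxcl1 and Cxcl5 rose in NF. Cxcl5 was 2.57, 3.27 and 1.58 CPM in CAF with siHsp90aa1 and 4.19, 4.79 and 2.44 CPM in CAF controls, against 200, 192 and 203 CPM in NF with siHsp90aa1 and 38.4, 62.9 and 66.0 CPM in NF controls. It was thus far more abundant in NF, and its difference was −2.44 ± 0.48 (log2, adjusted p = 0.00639 in edgeR). Cxcl1 passed in both lines, with −0.75 ± 0.23 in CAF, 0.99 ± 0.20 in NF and a difference of −1.73 ± 0.31 (log2, adjusted p = 0.00355 in edgeR). The fifth chemokine to pass was Ccl5, at −1.64 ± 0.47 (adjusted p = 0.0490 in edgeR), named here though outside the rule. Ccl2, Ccl7, Cxcl1 and Cxcl5 passed with any 1 of the 12 libraries left out.

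Vcam1, an adhesion molecule for leukocytes and an NF-κB target, was the 1 gene of 21 in its list to pass, where 2 passed without replicate 1 or 3 of CAF with siHsp90aa1 or replicate 3 of CAF controls. It read 267, 255 and 274 CPM in CAF with siHsp90aa1 and 296, 251 and 243 CPM in CAF controls. In NF with siHsp90aa1 it was 243, 227 and 233 CPM, against 114, 102 and 107 CPM in NF controls. The CAF effect was 0.01 ± 0.10 and the NF effect 1.12 ± 0.10, and the difference was −1.11 ± 0.14 (log2, adjusted p = 0.000385 in edgeR). NF with siHsp90aa1, NF with vehicle at 238, 220 and 278 CPM and both CAF groups shared 1 range, and the NF controls with TGFβ1 stood apart below it.

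Interferon-type genes rose in NF, and few of them passed in CAF. Among guanylate-binding proteins, immunity-related GTPases and antigen presentation genes, 20 of 23 rose in NF and none fell, whereas in CAF 1 rose, or 5 with the replicate block, and 1 fell. In the difference 4 of the 23 were lower and none higher, 7 with the replicate block, and 8 without replicate 1 of CAF with siHsp90aa1. Psmb10, a catalytic subunit of the immunoproteasome, was 18.3, 14.7 and 16.6 CPM in CAF with siHsp90aa1 and 18.2, 18.1 and 19.3 CPM in CAF controls, against 142, 121 and 111 CPM in NF with siHsp90aa1 and 70.1, 73.9 and 61.1 CPM in NF controls. CAF libraries overlapped, NF libraries did not, and the difference was −1.03 ± 0.17 (log2, adjusted p = 0.00243 in edgeR). Nlrc5, the transactivator of MHC class I genes, had a difference of −1.81 ± 0.41 and Gbp9 one of −1.67 ± 0.36 (adjusted p = 0.0139 and 0.0118 in edgeR). Both were scarce in CAF, Nlrc5 with 0.770 to 1.33 CPM after siHsp90aa1 and 0.882 to 2.33 CPM in controls, and Gbp9 with 0.527 to 1.57 CPM after siHsp90aa1 and 1.04 to 2.02 CPM in controls. Gbp4, at or below 0.420 CPM in every CAF library of the siHsp90aa1 difference, had a difference of −2.26 ± 0.49 (adjusted p = 0.0112 in edgeR). Guanylate-binding proteins are similar enough that read sharing among them is uncertain. The transcription factor Irf1, which drives many of these genes, was 46.4, 47.4 and 43.0 CPM in CAF with siHsp90aa1, against 55.3, 60.2 and 58.9 CPM in CAF controls. The NF libraries with siHsp90aa1 held 180, 145 and 131 CPM, against 132, 115 and 99.4 CPM in NF controls. It fell in CAF by 0.35 ± 0.11 and rose in NF by 0.40 ± 0.11, and the difference was −0.75 ± 0.16 (log2, adjusted p = 0.0110 in edgeR). Antiviral interferon-stimulated genes rose in NF for 17 of 28 tested and in CAF for 2, or 4 with the replicate block, yet none passed in the difference in edgeR. DESeq2 called 3, the RNA-binding protein Ifit2, the GTPase Mx1 and the nucleic acid sensor Zbp1 (adjusted p = 0.0178, 0.00773 and 0.0176), and 1 was lower with no filter on low counts. With the replicate block 2 were lower, as without replicate 3 of NF with siHsp90aa1, 1 was lower without replicate 1 of CAF with siHsp90aa1 or of NF controls, and 24 of the 28 had a difference below 0. Ifit2, whose gene family has similar members so that read sharing is uncertain, came nearest to passing in edgeR with −1.09 ± 0.34 (log2, adjusted p = 0.0682 in edgeR).

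**Figure D2:**
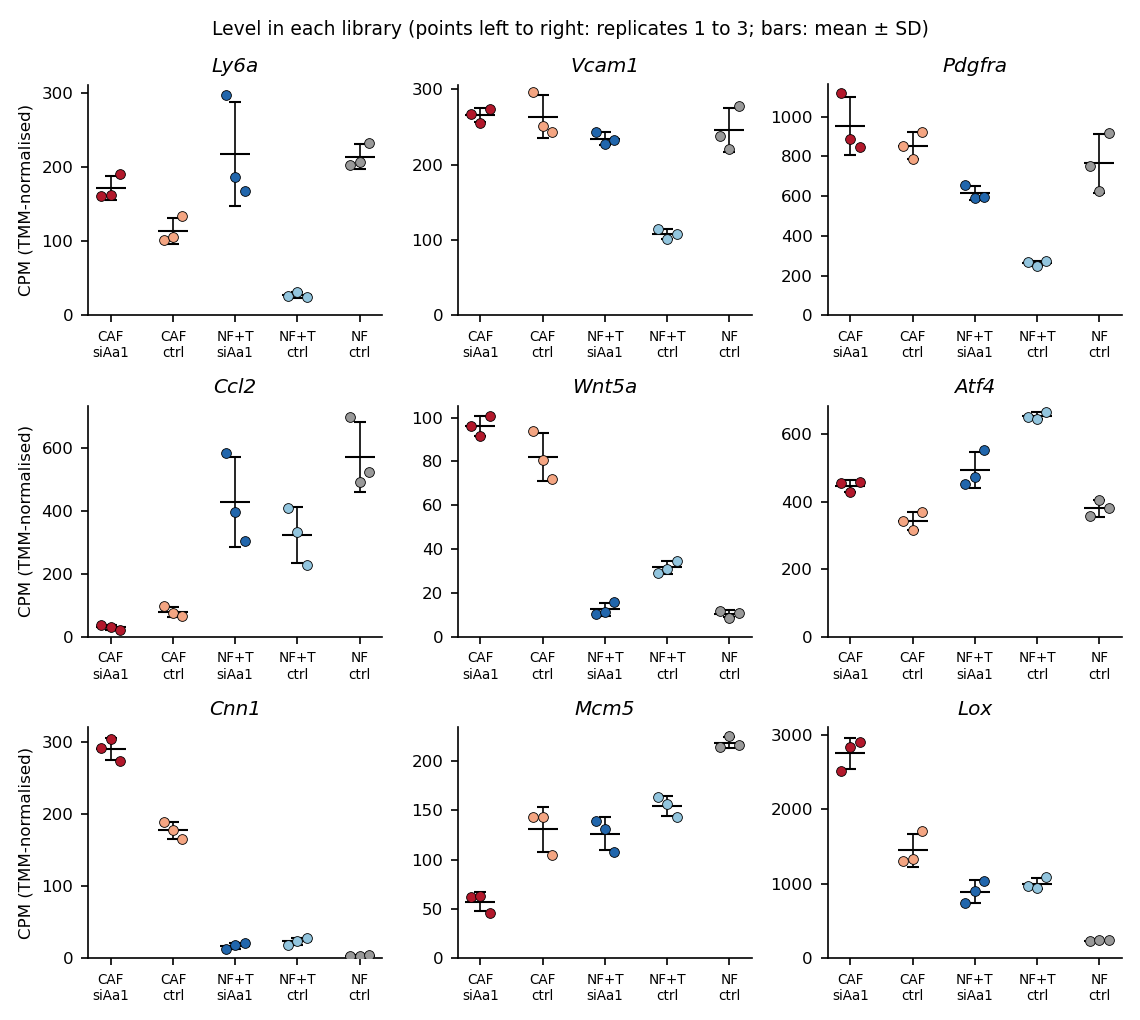
Level of 9 genes in each library in CPM (TMM-normalised), with 3 points per group for replicates 1 to 3 and bars for mean ± SD. Groups run CAF with siHsp90aa1 (siAa1), CAF controls, NF with TGFβ1 (NF+T) and siHsp90aa1, NF with TGFβ1 controls and NF with vehicle, and Ly6a, Vcam1 and Pdgfra were low in NF controls with TGFβ1 alone.

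The contractile genes that passed mostly rose in CAF and mostly fell in NF. Of 24 tested, 9 were higher in the difference and none lower, with a median of 0.57, and 22 of the 24 had a difference above 0. In CAF 9 rose and none fell, and in NF 1 rose and 7 fell, or 2 and 12 with the replicate block. The count of higher members was 13 with the replicate block and 4 with the 12 libraries fitted alone. It was 3 without replicate 1 or 2 of CAF with siHsp90aa1 or replicate 1 of NF with siHsp90aa1, and 4 without replicate 2 or 3 of CAF controls, replicate 2 of NF with siHsp90aa1 or replicate 3 of NF controls. Cnn1, the actin-binding calponin, was 293, 304 and 274 CPM in CAF with siHsp90aa1, against 189, 178 and 166 CPM in CAF controls. NF with siHsp90aa1 had 13.2, 18.1 and 20.7 CPM, against 18.3, 24.7 and 27.6 CPM in NF controls. Only the CAF groups were apart, at 0.71 ± 0.16 (adjusted p = 0.00425), while the NF effect was −0.44 ± 0.17 (adjusted p = 0.0592) and the difference 1.15 ± 0.24 (adjusted p = 0.00896, all log2 in edgeR). Tagln, the actin cross-linker transgelin, differed by its fall in NF, with 54.8, 77.0 and 90.9 CPM in NF with siHsp90aa1 against 130.5, 128 and 151 CPM in NF controls. CAF held 1347, 1187 and 983 CPM of it with siHsp90aa1 and 1109, 859 and 668 CPM in controls, which overlap, and the difference was 1.30 ± 0.26 (log2, adjusted p = 0.00691 in edgeR). Pdlim7, an actin-associated scaffold, passed in both lines in opposite directions. It was 228, 207 and 217 CPM in CAF with siHsp90aa1 and 186, 169 and 159 CPM in CAF controls, against 139, 156 and 179 CPM in NF with siHsp90aa1 and 240, 202 and 228 CPM in NF controls. Its difference was 0.84 ± 0.13 (log2, adjusted p = 0.00120 in edgeR). Cnn1, Tagln and Pdlim7 passed with any 1 library left out.

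Serum response factor controls many contractile genes through the CArG box. The promoters were searched over the 250 bases before the start site on both strands, from RefSeq on GRCm38.p6, and a CArG box was found in 4 of 21 contractile genes with a promoter in the table, against 1.47% of all 32851 promoters. Here and for the motifs below, a gene counted if any of its promoters held the motif. The share over all promoters counts each promoter singly, so it is not a like measure. Of the 9 higher genes, 7 had a promoter there and 2, Myl9 and Myl6, held the motif. The promoter of Myl9, the regulatory light chain of smooth muscle myosin (chr2:156775214-156775463, plus strand), is shown with its CArG box in capitals. Myl9, outside the naming rule and chosen for that motif, had a CAF effect of 0.57 ± 0.20, an NF effect of −0.53 ± 0.20 that missed the threshold and a difference of 1.10 ± 0.28 (log2, adjusted p = 0.0256 in edgeR).
Myl9: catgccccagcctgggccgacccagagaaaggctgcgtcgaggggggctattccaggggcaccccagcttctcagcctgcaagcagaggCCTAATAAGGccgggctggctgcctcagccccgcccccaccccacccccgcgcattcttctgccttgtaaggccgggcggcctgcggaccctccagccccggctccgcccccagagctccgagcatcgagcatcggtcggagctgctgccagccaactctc

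TGFβ target genes and matrix genes were higher in the difference for a part of their members. Of 24 TGFβ targets, 5 were higher and none lower, and 8 higher and 3 lower with the replicate block. In CAF 7 rose and none fell, while in NF 4 rose and 9 fell. The higher count was 3 without replicate 1 or 2 of either siHsp90aa1 group, replicate 2 or 3 of CAF controls, or replicate 1 or 2 of NF controls. A member was lower, 1 in number, without replicate 3 of NF with siHsp90aa1 or replicate 2 of NF controls. Ski, a SMAD co-repressor, was 247, 235 and 266 CPM in CAF with siHsp90aa1, against 181, 176 and 183 CPM in CAF controls. In NF with siHsp90aa1 it was 158, 155 and 169 CPM, against 194, 185 and 191 CPM in NF controls. No groups of 1 line overlapped, the directions were opposite, and the difference was 0.71 ± 0.09 (log2, adjusted p = 0.000512 in edgeR). Ldlrad4, which limits SMAD activation, passed in opposite directions likewise, with a difference of 1.31 ± 0.26 (adjusted p = 0.00662 in edgeR). Smurf2, a ubiquitin ligase acting on SMADs and TGFβ receptors, fell in NF by 0.40 ± 0.07 and changed by 0.09 ± 0.07 in CAF (adjusted p = 0.414), with a difference of 0.48 ± 0.10 (adjusted p = 0.00998, all log2 in edgeR). Tgfb1 itself, the ligand gene, was 78.4, 59.1 and 57.9 CPM in CAF with siHsp90aa1 and 104, 86.2 and 75.2 CPM in CAF controls, against 70.6, 78.1 and 115 CPM in NF with siHsp90aa1 and 202, 180 and 213 CPM in NF controls. Its difference of 0.73 ± 0.23 missed the threshold (log2, adjusted p = 0.0774 in edgeR), but passed in DESeq2 (0.0402) and without replicate 3 of NF with siHsp90aa1 (0.0103).

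Of 28 matrix proteins, 5 were higher and none lower, with a median of 0.41, and 10 were higher with the replicate block. In CAF 11 rose and none fell, and in NF 5 rose and 1 fell, or 6 and 3 with the replicate block. The higher count was 2 without replicate 2 of CAF with siHsp90aa1, replicate 2 of CAF controls, replicate 1 of NF with siHsp90aa1 or replicate 3 of NF controls. It was 3 without replicate 3 of CAF with siHsp90aa1, replicate 1 of CAF controls or replicate 2 of NF with siHsp90aa1, and 8, with 1 lower, without replicate 3 of NF with siHsp90aa1. DESeq2 called 8, and the 12 libraries alone 3. Col5a2, a chain of the fibril-regulating collagen V, was 3445, 3314 and 3593 CPM in CAF with siHsp90aa1, against 2349, 2230 and 2423 CPM in CAF controls. The NF libraries with siHsp90aa1 held 1239, 1444 and 1721 CPM, against 1627, 1620 and 1850 CPM in NF controls, which overlap. The difference was 0.77 ± 0.18 (log2, adjusted p = 0.0145 in edgeR). Col8a1, a short-chain network collagen, had a CAF effect of 0.99 ± 0.18, an NF effect of −0.11 ± 0.18 and a difference of 1.10 ± 0.25 (adjusted p = 0.0157, all log2 in edgeR). Lox, the lysyl oxidase that cross-links collagen and elastin, was 2513, 2841 and 2900 CPM in CAF with siHsp90aa1, against 1309, 1332 and 1704 CPM in CAF controls. In NF it was 740, 902 and 1044 CPM with siHsp90aa1 and 974, 946 and 1088 CPM in controls. The CAF groups did not overlap and the NF groups did, and the difference was 1.09 ± 0.19 (log2, adjusted p = 0.00373 in edgeR). The tissue inhibitor of metalloproteinases Timp3 had a CAF effect of 0.53 ± 0.21 that missed the threshold, an NF effect of −0.85 ± 0.21 and a difference of 1.38 ± 0.30 (adjusted p = 0.0118, all log2 in edgeR). Plat, the tissue plasminogen activator, and Mmp19, a metalloproteinase, had differences of −0.69 ± 0.15 and −0.96 ± 0.22 (adjusted p = 0.0128 and 0.0169 in edgeR), and both rose in NF.

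Of 24 growth factors tested, 2 were higher in the difference, Wnt5a and Pdgfa, and 1 was lower, Fgf10, and the median of the list was 0.03. With the replicate block 7 were higher and 3 lower, and 2 were lower with the 12 libraries alone. Wnt5a, a non-canonical Wnt ligand, was 96.2, 91.8 and 101 CPM in CAF with siHsp90aa1 and 94.0, 80.5 and 72.2 CPM in CAF controls. NF with siHsp90aa1 had 10.5, 11.3 and 16.1 CPM, against 29.2, 30.9 and 34.8 CPM in NF controls and 12, 8.71 and 11.1 CPM in NF with vehicle. The CAF effect was 0.23 ± 0.14 (adjusted p = 0.244), the NF effect −1.33 ± 0.14 and the difference 1.56 ± 0.20 (adjusted p = 0.000385, all log2 in edgeR). Jag1, a Notch ligand, was 14.6, 21.7 and 32.5 CPM in CAF with siHsp90aa1 and 10.0, 11.3 and 16.4 CPM in CAF controls, against 27.6, 48.2 and 83.3 CPM in NF with siHsp90aa1 and 105, 135 and 173 CPM in NF controls. Its difference was 2.24 ± 0.49 (log2, adjusted p = 0.0125 in edgeR), and within each replicate number the difference on log2 CPM was 2.46, 2.43 and 2.04. Pdgfa, a ligand of the PDGF receptor α, fell in both lines, by 0.55 ± 0.20 in CAF and 1.82 ± 0.20 in NF, so its difference was 1.26 ± 0.28 (log2, adjusted p = 0.0125 in edgeR). Efnb2, an ephrin ligand of cell contact, passed in opposite directions with 0.56 ± 0.13 in CAF, −0.40 ± 0.13 in NF and a difference of 0.96 ± 0.18 (log2, adjusted p = 0.00560 in edgeR).

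**Figure D3:**
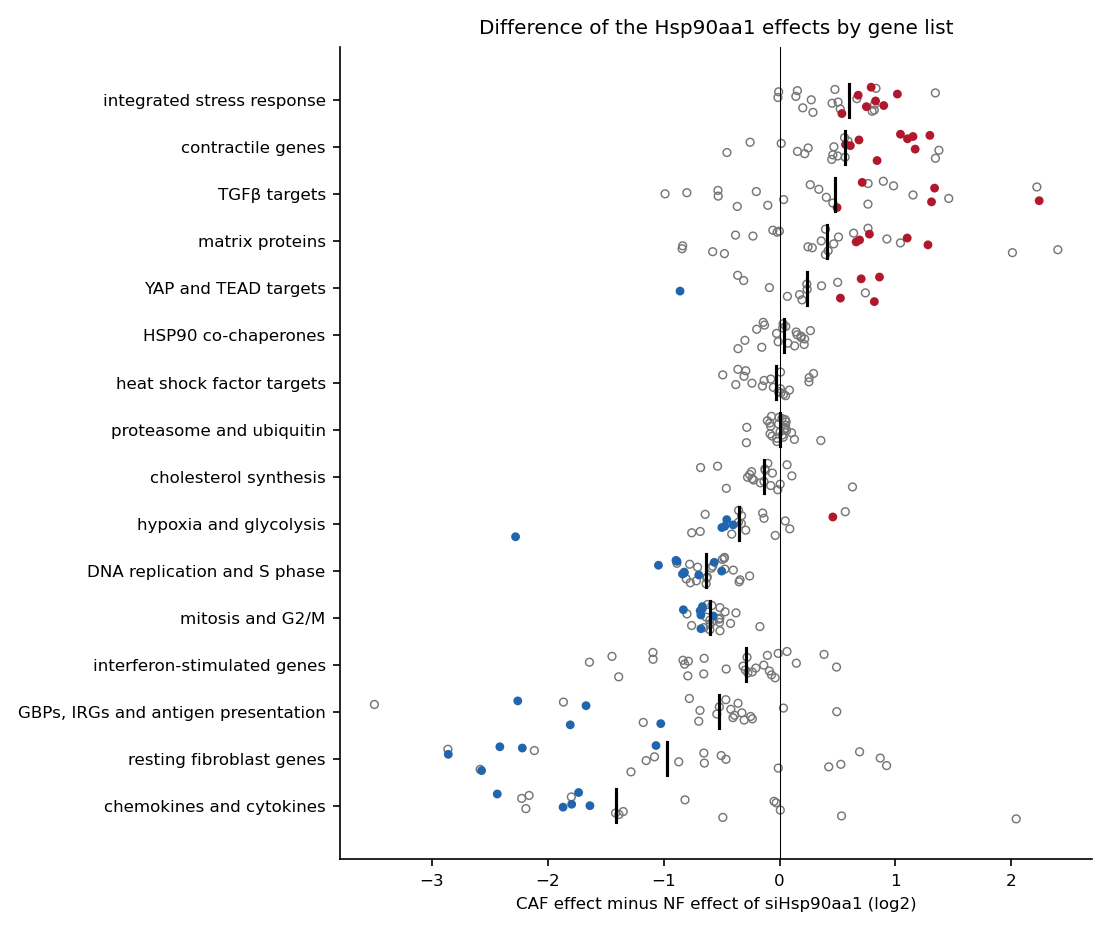
CAF effect minus NF effect of siHsp90aa1 (log2, horizontal axis) for each tested member of 16 gene lists, with filled points for members that passed (red higher, blue lower), open points for the others and black bars for list medians. The medians of the chemokines and the resting fibroblast genes were −1.42 and −0.97, and those of the stress response and contractile genes 0.60 and 0.57.

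Genes of the integrated stress response, in which ATF4 raises amino acid synthesis and transport, rose in CAF, and more of them fell than rose in NF. In CAF 16 of 24 rose and none fell, and in NF 1 rose and 5 fell. The difference was higher for 7 and lower for none, with a median of 0.60, and for 12 with the replicate block. The count was 4 without replicate 3 of CAF with siHsp90aa1, replicate 1 or 2 of CAF controls, replicate 1 or 2 of NF with siHsp90aa1 or replicate 3 of NF controls, and 11 without replicate 3 of CAF controls. Atf4, the transcription factor of the response, was 456, 428 and 458 CPM in CAF with siHsp90aa1, against 344, 316 and 370 CPM in CAF controls. In NF with siHsp90aa1 it was 454, 473 and 553 CPM, against 651, 645 and 666 CPM in NF controls and 356, 405 and 380 CPM in NF with vehicle. It passed in both lines in opposite directions, with a difference of 0.79 ± 0.12 (log2, adjusted p = 0.00112 in edgeR). Slc3a2, the heavy chain of large amino acid transporters, was 341, 326 and 372 CPM in CAF with siHsp90aa1, against 207, 194 and 231 CPM in CAF controls. In NF it was 300, 265 and 302 CPM with siHsp90aa1 and 304, 289 and 293 CPM in controls, and the difference was 0.75 ± 0.13 (log2, adjusted p = 0.00276 in edgeR). Mthfd2, a mitochondrial enzyme of one-carbon metabolism, and Cebpg, a dimer partner of ATF4, went up in CAF and down in NF, with differences of 0.83 ± 0.15 and 0.54 ± 0.12 (adjusted p = 0.00451 and 0.0127 in edgeR). Atf4, Slc3a2, Mthfd2 and Cebpg passed with any 1 library left out. Not all members differed, since Ddit3, the factor CHOP and outside the naming rule, rose in both lines, by 0.90 ± 0.23 in CAF and 0.74 ± 0.23 in NF, with a difference of 0.15 ± 0.32 (log2, adjusted p = 0.857 in edgeR).

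ATF4 dimers bind sequences that contain TGATGNAA. This motif was found on either strand of the same 250 bases in 7 of 22 stress response genes with a promoter, against 3.45% of all promoters, and in 2 of the 6 higher ones, Chac1 and Asns. Chac1 degrades glutathione and Asns makes asparagine, and both lie outside the naming rule and were chosen for the motif. Their CAF effects were 0.82 ± 0.18 and 0.53 ± 0.12, their NF effects −0.20 ± 0.18 and −0.15 ± 0.12, and their differences 1.02 ± 0.25 and 0.68 ± 0.17 (log2, adjusted p = 0.0251 and 0.0249 in edgeR). The promoters of Chac1 (chr2:119350992-119351241, plus strand) and Asns (chr6:7693210-7693459, minus strand) follow with the motif in capitals, on the opposite strand in Chac1.
Chac1: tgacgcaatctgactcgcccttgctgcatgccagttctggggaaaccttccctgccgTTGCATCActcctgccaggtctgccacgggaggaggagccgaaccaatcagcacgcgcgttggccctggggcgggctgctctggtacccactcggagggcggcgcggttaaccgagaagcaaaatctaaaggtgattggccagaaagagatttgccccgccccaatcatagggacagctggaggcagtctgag
Asns: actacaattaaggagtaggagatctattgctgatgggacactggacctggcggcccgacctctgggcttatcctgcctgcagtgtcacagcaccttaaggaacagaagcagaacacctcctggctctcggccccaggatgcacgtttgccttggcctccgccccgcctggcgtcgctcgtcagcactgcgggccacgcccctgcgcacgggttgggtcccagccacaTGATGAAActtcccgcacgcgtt

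Cell cycle genes fell in CAF, and fewer of them passed in NF. All 28 DNA replication genes fell in CAF, with a median effect of −0.96, and 10 fell in NF, or 21 with the replicate block, with a median of −0.35. In the difference 9 were lower and none higher, with a median of −0.63, and every member had a difference below 0. With the replicate block 21 were lower, DESeq2 called 17, and 19 were lower without replicate 3 of CAF controls. Cdt1, which licenses replication origins, was 26.3, 25.7 and 18.8 CPM in CAF with siHsp90aa1, against 59.1, 57.3 and 46.2 CPM in CAF controls. In NF it was 106, 97.7 and 81.8 CPM with siHsp90aa1 and 103, 110 and 103 CPM in controls. The CAF libraries did not overlap and the NF libraries did, and the difference was −1.05 ± 0.21 (log2, adjusted p = 0.00906 in edgeR). Mcm5, a subunit of the replicative helicase, was 62.5, 63.5 and 46.1 CPM in CAF with siHsp90aa1, against 144, 144 and 104 CPM in CAF controls. In NF it was 139, 132 and 107 CPM with siHsp90aa1 and 163, 157 and 143 CPM in controls, and the difference was −0.89 ± 0.20 (log2, adjusted p = 0.0122 in edgeR). Pole, the leading-strand polymerase, and Rfc4, a subunit of the clamp loader, had differences of −0.84 ± 0.18 and −0.82 ± 0.17 (adjusted p = 0.0106 and 0.00960 in edgeR). Of 26 mitosis genes, 25 fell in CAF and 3 in NF, or 26 and 11 with the replicate block, 7 were lower in the difference, 24 with the replicate block, and the median was −0.60. The count was 14 in DESeq2 and 15 without replicate 3 of CAF controls. It was 3 without replicate 2 of CAF controls or replicate 1 or 2 of NF with siHsp90aa1, and 2 without replicate 3 of NF controls. Cdc20, the activator of the anaphase-promoting complex, was 65.6, 61.3 and 57.1 CPM in CAF with siHsp90aa1, against 110, 105 and 86.9 CPM in CAF controls. In NF it was 88.7, 88.8 and 89.4 CPM with siHsp90aa1 and 92.3, 95.3 and 88.1 CPM in controls, and the difference was −0.67 ± 0.14 (log2, adjusted p = 0.0106 in edgeR). The phosphatase Cdc25c, which starts mitosis, had a difference of −0.69 ± 0.13 (adjusted p = 0.00551 in edgeR). Cdt1, Mcm5, Pole, Rfc4, Cdc20 and Cdc25c passed with any 1 library left out.

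E2F factors bind replication genes at the sequences TTTCCCGC, TTTCGCGC, TTTGCCGC and TTTGGCGC. At least 1 of them was found on either strand in 8 of 22 replication genes with a promoter, against 1.86% of all promoters, and in 5 of 8 lower ones. The promoters of Mcm5 (chr8:75109259-75109508, plus strand) and Mcm6 (chr1:128359706-128359955, minus strand) are shown since each holds more than 1 match, and overlapping matches on both strands form 1 run of capitals. Mcm6, another helicase subunit outside the naming rule, had a difference of −0.89 ± 0.20 (log2, adjusted p = 0.0125 in edgeR).
Mcm5: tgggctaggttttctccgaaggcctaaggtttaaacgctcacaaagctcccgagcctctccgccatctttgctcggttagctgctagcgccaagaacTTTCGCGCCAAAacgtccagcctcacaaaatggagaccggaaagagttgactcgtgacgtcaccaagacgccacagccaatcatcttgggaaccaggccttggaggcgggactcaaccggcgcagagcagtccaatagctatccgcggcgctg
Mcm6: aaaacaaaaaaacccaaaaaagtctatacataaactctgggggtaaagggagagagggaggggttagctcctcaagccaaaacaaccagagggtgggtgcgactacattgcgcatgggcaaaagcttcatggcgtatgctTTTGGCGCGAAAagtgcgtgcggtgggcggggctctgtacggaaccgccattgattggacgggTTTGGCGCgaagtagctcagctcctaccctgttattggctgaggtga

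**Figure D4:**
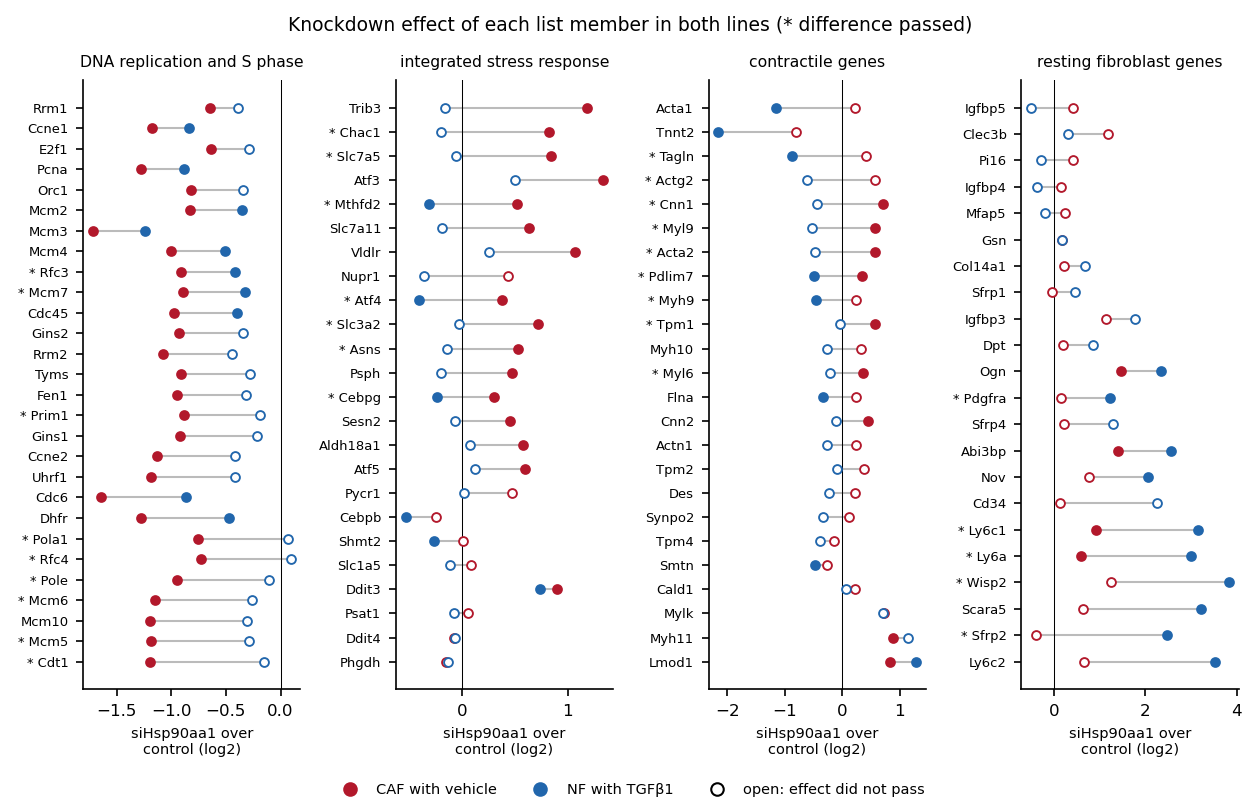
Effect of siHsp90aa1 over control siRNA (log2, horizontal axis) in CAF (red) and NF (blue) for each tested member of 4 lists, with filled points where the effect passed, open points where it did not, and a star before genes whose difference passed. All 28 replication genes lie left of 0 in CAF, and the resting fibroblast genes reach their highest values in NF.

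Part of the hypoxia and glycolysis list fell in CAF. Of its 21 members tested, 11 fell in CAF and none rose, 4 rose and 5 fell in NF, and the difference was lower for 5 and higher for 1, the phosphofructokinase Pfkp. No member was higher without replicate 1 or 2 of any of the 4 groups save replicate 2 of NF controls, or without replicate 3 of NF controls. Pkm, the pyruvate kinase, had a CAF effect of −0.50 ± 0.08, an NF effect of −0.03 ± 0.08 and a difference of −0.47 ± 0.11 (log2, adjusted p = 0.0160 in edgeR), with an adjusted p of 0.05, just above the threshold, without replicate 1 of NF with siHsp90aa1. The count of lower members was 9 with the replicate block and 8 in DESeq2. It was 3 without replicate 3 of NF with siHsp90aa1, 2 without replicate 2 of CAF with siHsp90aa1, replicate 1 or 2 of NF with siHsp90aa1 or replicate 1 or 3 of NF controls, and 1 without replicate 3 of CAF with siHsp90aa1 or replicate 2 of CAF controls.

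The 12 largest higher differences had Jag1, described above, among them. Of these 12 genes, 6 passed in both lines in opposite directions, against 96 of all 832. Both effects are part of the difference that chose these genes, so this count is no finding. Ctsf, the lysosomal protease cathepsin F, led with 8, 6.36 and 9.43 CPM in CAF with siHsp90aa1 and 3.78, 2.16 and 4.13 CPM in CAF controls, against 1.41, 1.91 and 2.26 CPM in NF with siHsp90aa1 and 3.29, 4.96 and 5.26 CPM in NF controls. It rose in CAF and fell in NF, no groups of 1 line overlapped, and the difference was 2.51 ± 0.36 (log2, adjusted p = 0.000732 in edgeR). Mn1, a transcriptional coregulator, had the same pattern with 138, 118 and 159 CPM in CAF with siHsp90aa1, 52.6, 55.9 and 108 CPM in CAF controls, 2.31, 3.19 and 3.56 CPM in NF with siHsp90aa1 and 8.06, 7.84 and 8.74 CPM in NF controls. Its difference was 2.38 ± 0.36 (adjusted p = 0.00120 in edgeR). The chemerin receptor Cmklr1 and the ligand Wnt9a fell in NF, by 2.64 ± 0.31 and 1.86 ± 0.29, and had CAF effects of −0.32 ± 0.28 and 0.38 ± 0.22 that missed the threshold, for differences of 2.33 ± 0.41 and 2.24 ± 0.36 (log2, adjusted p = 0.00361 and 0.00178 in edgeR). The hearing-linked scaffold Whrn and the processed pseudogene Gm9847 passed in opposite directions, with differences of 1.90 ± 0.29 and 2.10 ± 0.29 (log2, adjusted p = 0.00123 and 0.000600 in edgeR). A processed pseudogene can take reads of its parent gene, so Gm9847 is uncertain. Another 4 were less stable. Smoc2, a matricellular protein, passed at 2.47 ± 0.69 (adjusted p = 0.0445 in edgeR) and, with 1 library left out, only without replicate 3 of CAF controls or of NF controls, reaching an adjusted p of 0.116. Fzd4, a Wnt receptor, passed only without replicate 1 of CAF with siHsp90aa1, replicate 3 of CAF controls or replicate 3 of NF with siHsp90aa1, reaching 0.0988. Phyhip lost the call without replicate 3 of CAF with siHsp90aa1, replicate 1 or 2 of CAF controls, replicate 2 of NF with siHsp90aa1 or replicate 3 of NF controls, reaching 0.0916, and Anxa8, an annexin, lost it without replicate 1 of CAF with siHsp90aa1, at 0.0648.

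Of the 12 largest lower differences, 10 belonged to genes that rose in NF, against 14.8% of all genes tested. The NF effect is part of the difference that chose them, so this count is no finding. Prl2c2 encodes proliferin, a secreted prolactin relative. It was 32.8, 23.8 and 20.6 CPM in CAF with siHsp90aa1 and 56.5, 37.0 and 38.7 CPM in CAF controls, against 274, 195 and 122 CPM in NF with siHsp90aa1 and 44.1, 37.1 and 12.6 CPM in NF controls. NF with vehicle held 246, 207 and 212 CPM, which overlaps NF with siHsp90aa1. The difference was −3.43 ± 0.54 for Prl2c2 and −3.80 ± 0.66 for its near copy Prl2c3 (log2, adjusted p = 0.00156 and 0.00336 in edgeR), and reads may be divided wrongly between these copies. Ggt5, a γ-glutamyl transferase that cleaves leukotriene C4, was 99.3, 113 and 154 CPM in CAF with siHsp90aa1 and 48.8, 64.2 and 106 CPM in CAF controls, against 7.89, 6.86 and 6.69 CPM in NF with siHsp90aa1 and 0.200, 0.418 and 0.392 CPM in NF controls. NF with vehicle had 5.00, 5.79 and 9.80 CPM. The CAF groups overlapped, the NF groups were far apart, and the difference was −3.64 ± 0.52 (log2, adjusted p = 0.000732 in edgeR). Apln, the peptide ligand apelin, was 1.70, 1.47 and 1.23 CPM in CAF with siHsp90aa1 and 4.44, 3.23 and 2.71 CPM in CAF controls, against 5.21, 5.23 and 6.69 CPM in NF with siHsp90aa1 and 1.29, 1.80 and 1.23 CPM in NF controls. It fell in CAF and rose in NF with no overlap in either line, and its difference of −3.21 ± 0.35 (log2, adjusted p = 0.000113 in edgeR) shared the lowest p of the named genes with Ly6a. Itgb7, an integrin chain, and Clec14a, a lectin-like surface protein, differed by −3.18 ± 0.67 and −2.78 ± 0.59 (adjusted p = 0.0106 and 0.0105 in edgeR). Both rose in NF and were scarce in CAF, where neither effect passed. CAF with siHsp90aa1 held 0.176 to 0.497 CPM of Itgb7, and CAF controls 0.611 to 0.838 CPM. For Clec14a these ranges were 0.112 to 0.203 CPM and 0.147 to 0.306 CPM. Amigo2, an adhesion protein of neurons, and Ankle1, a DNA endonuclease, fell in CAF and rose in NF, with differences of −2.07 ± 0.47 and −1.98 ± 0.31 (log2, adjusted p = 0.0156 and 0.00142 in edgeR). Prl2c2, Prl2c3, Ggt5, Apln, Itgb7, Clec14a, Amigo2 and Ankle1 passed with any 1 library left out.

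Some of the largest lower values rest on few counts in CAF. Over 3 libraries each, Hhip, the hedgehog-interacting protein, had 2 counts in CAF with siHsp90aa1 and 19 in CAF controls, a ratio of 0.115 with an exact 95% interval of 0.0130 to 0.478 for counting error only. Clip4 had 3 and 20 counts, a ratio of 0.164 (0.0313 to 0.554), and Gbp10 had 6 and 32, a ratio of 0.205 (0.0702 to 0.498). In NF with siHsp90aa1 these genes had 1285, 3381 and 2920 counts, and in NF controls 909, 2694 and 1204. Their fitted differences of −3.38 ± 0.72, −2.79 ± 0.71 and −3.49 ± 0.66 (log2, adjusted p = 0.0108, 0.0277 and 0.00542 in edgeR) depend on those few counts and are no bounds. Hhip lost its call without replicate 3 of CAF controls (adjusted p = 0.0511), and Clip4 without any 1 of the CAF libraries but replicate 2 of the controls, reaching 0.0973. In all, 13 of the 832 genes had 3 counts or fewer in the sum of at least 1 of the 4 groups. Fam189a2, with 0.111, 0.145 and 0.235 CPM in NF controls, lost its call without replicate 1 or 2 of NF controls, at 0.0625 and 0.0569. Gsta4, a glutathione transferase, kept it only without replicate 3 of CAF with siHsp90aa1, replicate 1 of CAF controls, replicate 3 of NF with siHsp90aa1 or replicate 2 of NF controls, reaching 0.0783.

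A few members passed in further lists. Of 20 collagen processing genes 3 were higher, Lox, its relative Loxl2 (1.36 ± 0.33, adjusted p = 0.0217) and the lysyl hydroxylase Plod2 (1.44 ± 0.36, adjusted p = 0.0244), and Loxl3 was lower at −0.62 ± 0.17 (adjusted p = 0.0444, all log2 in edgeR). The block gave 7 higher and 2 lower, and 1 was higher without replicate 2 of CAF controls or replicate 1 of NF with siHsp90aa1. Lox passed with any 1 library left out. The difference of Loxl2 came with a fall in NF, from a mean of 3.72 CPM in controls to 1.96 CPM with siHsp90aa1. Its CAF effect of 0.39 ± 0.20 missed the threshold (log2, adjusted p = 0.167 in edgeR). The CAF means of Loxl2 were 804 CPM with siHsp90aa1 and 612 CPM in controls. Loxl2 lost its call without replicate 2 of CAF controls, replicate 1 or 2 of NF with siHsp90aa1 or replicate 3 of NF controls (up to 0.0805), and Plod2 without replicate 3 of CAF with siHsp90aa1, replicate 1 or 2 of CAF controls, replicate 1 of NF with siHsp90aa1 or replicate 1 of NF controls (up to 0.0706). Loxl3 kept its call only without replicate 3 of CAF controls or of NF with siHsp90aa1, reaching 0.125. Of 16 targets of the co-activator YAP 4 were higher, and F3, which encodes tissue factor, was lower at −0.86 ± 0.18 (adjusted p = 0.0108 in edgeR). The higher count was 1 or 2 without replicate 1 or 2 of CAF with siHsp90aa1, replicate 2 of CAF controls, replicate 1 or 2 of NF with siHsp90aa1, or replicate 2 or 3 of NF controls. Gadd45b, a stress gene of that list, had the smallest p of it with a difference of 0.82 ± 0.17 (log2, adjusted p = 0.00998 in edgeR). Among 18 adipogenic and lipid genes Acsl1, which activates fatty acids, and the factor Cebpd were lower, at −0.97 ± 0.13 and −1.37 ± 0.34 (log2, adjusted p = 0.000600 and 0.0252 in edgeR). Cebpd kept its call only without replicate 1 of CAF with siHsp90aa1, replicate 3 of CAF controls or replicate 2 or 3 of NF with siHsp90aa1, reaching 0.0825. Of 17 interferon signalling genes Irf1 and the feedback inhibitor Socs1 were lower, and Socs1 differed by −1.25 ± 0.34 (log2, adjusted p = 0.0414 in edgeR). Socs1 kept its call without replicate 3 of CAF with siHsp90aa1, replicate 2 or 3 of NF with siHsp90aa1 or replicate 2 of NF controls. It lost the call in the other fits with 1 library left out, reaching 0.123.

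Of 20 HSP90 co-chaperones, 8 fell in CAF and 6 in NF, and none passed in the difference, whose values ran from −0.36 to 0.27 with a median of 0.04. The ubiquitin ligase Stub1 had the smallest p of the list, at −0.30 ± 0.09 (log2, adjusted p = 0.0521 in edgeR). It passed with the replicate block (adjusted p = 0.0171), RLE size factors (0.038), the 1 CPM minimum (0.0374), DESeq2 (0.00369) and the 12 libraries alone (0.029), and without replicate 2 of NF controls (0.044). With the replicate block 11 co-chaperones fell in NF. Fkbp4, a co-chaperone of steroid receptors, fell in both lines, with 139, 136 and 129 CPM in CAF with siHsp90aa1 against 230, 221 and 194 CPM in CAF controls, and 233, 258 and 255 CPM in NF with siHsp90aa1 against 360, 366 and 310 CPM in NF controls. Its difference was −0.20 ± 0.12 (log2, adjusted p = 0.402 in edgeR). Of 25 proteasome and ubiquitin genes, 12 fell in each line, and none passed in the difference, which ran from −0.29 to 0.36. None of 20 heat shock factor targets, 20 ER chaperone genes or 20 cholesterol synthesis genes passed either in edgeR, although 7 of the cholesterol genes fell in CAF and 4 in NF. With the replicate block no heat shock factor target, 1 proteasome gene, 3 ER genes and 2 cholesterol genes passed. In DESeq2 and with the 12 libraries alone 1 cholesterol gene passed, and without replicate 3 of CAF controls 1 ER gene. Trap1, the mitochondrial HSP90 relative, was 68.6, 70.1 and 73.0 CPM in CAF with siHsp90aa1 and 65.6, 64.4 and 67.9 CPM in CAF controls, against 112, 115 and 99.4 CPM in NF with siHsp90aa1 and 79.4, 80.3 and 61.1 CPM in NF controls. It rose in NF by 0.56 ± 0.10 and its difference of −0.47 ± 0.14 missed the threshold (log2, adjusted p = 0.0547 in edgeR), but passed with the replicate block (adjusted p = 0.0156), RLE size factors (0.0425), the 1 CPM minimum (0.0411) and DESeq2 (0.0122), and without replicate 3 of NF with siHsp90aa1 (0.0317) or replicate 1 or 2 of NF controls (0.0482 and 0.0386).

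With siHsp90ab1, Hsp90ab1 was 315, 246 and 166 CPM in CAF, against 2536, 2395 and 2370 CPM in CAF controls, and 327, 429 and 623 CPM in NF, against 3782, 3448 and 3120 CPM in NF controls. It fell by 3.33 ± 0.22 in CAF and by 2.91 ± 0.21 in NF (log2, SE, adjusted p = 1.5e-07 and 1.02e-06 in edgeR). The level of Hsp90aa1 was also below that of controls in these libraries, with 479, 459 and 324 CPM in CAF, against 995, 926 and 726 CPM in CAF controls, and 253, 297 and 327 CPM in NF, against 671, 606 and 543 CPM in NF controls. The groups did not overlap, but the effects of −1.07 ± 0.30 and −1.05 ± 0.30 missed the threshold (log2, adjusted p = 0.123 and 0.0722 in edgeR). The same difference of lines was formed for siHsp90ab1, which shares its control libraries with the siHsp90aa1 difference. For siHsp90ab1 it passed for 1 gene of 15230 (0.00657%), the ADP-ribosyltransferase gene Parp11, with 438 genes at an unadjusted p under 0.05, against 3016 for siHsp90aa1. DESeq2 called 18 for siHsp90ab1 and the replicate block 3, and none passed without replicate 1 or 2 of CAF controls or replicate 1 of NF controls, and 2 without replicate 2 of NF controls. The difference between the siRNAs was tested directly, as the siHsp90aa1 difference minus the siHsp90ab1 difference, in which the controls cancel but the siHsp90aa1 libraries are shared with the values above. It passed for 1358 genes (8.92%), 573 above 0 (3.76%) and 785 below (5.15%), for 2438 with the replicate block, and for 861 without replicate 1 of NF with siHsp90aa1. Ly6a had −2.41 ± 0.26 with siHsp90aa1 and 0.43 ± 0.26 with siHsp90ab1, which differ by −2.84 ± 0.26 (log2, adjusted p = 2.4e-05 in edgeR). For Wnt5a the values were 1.56 ± 0.20 and 0.41 ± 0.19, a difference of 1.15 ± 0.20 (adjusted p = 0.0014 in edgeR), and for Atf4 0.79 ± 0.12 and −0.01 ± 0.12, a difference of 0.80 ± 0.12 (adjusted p = 0.00047 in edgeR). Mcm5 had −0.89 ± 0.20 and −0.04 ± 0.20 (difference −0.85 ± 0.20, adjusted p = 0.011 in edgeR). Gbp9 had −1.67 ± 0.36 and 1.52 ± 0.35, where the second missed the threshold (adjusted p = 0.445 in edgeR), and differed by −3.19 ± 0.37 (adjusted p = 6.3e-05 in edgeR). By list, 13 of 24 stress response genes passed above 0 in this test and none below, 14 of 23 guanylate-binding and antigen presentation genes passed below 0 and none above, and 10 of 28 antiviral interferon-stimulated genes passed below 0 and 1 above. The median difference of the guanylate-binding list was −0.52 with siHsp90aa1 and 0.77 with siHsp90ab1. That of the antiviral list was −0.29 and 0.73, and none of its members passed with siHsp90aa1 alone. The counts of these lists thus draw on both siRNAs and are not siHsp90aa1 differences. Of the replication genes 10 of 28 passed below 0, and of the mitosis genes 11 of 26, with none above in either list. No co-chaperone passed above 0 and 1 of 20 passed below.

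**Figure D5:**
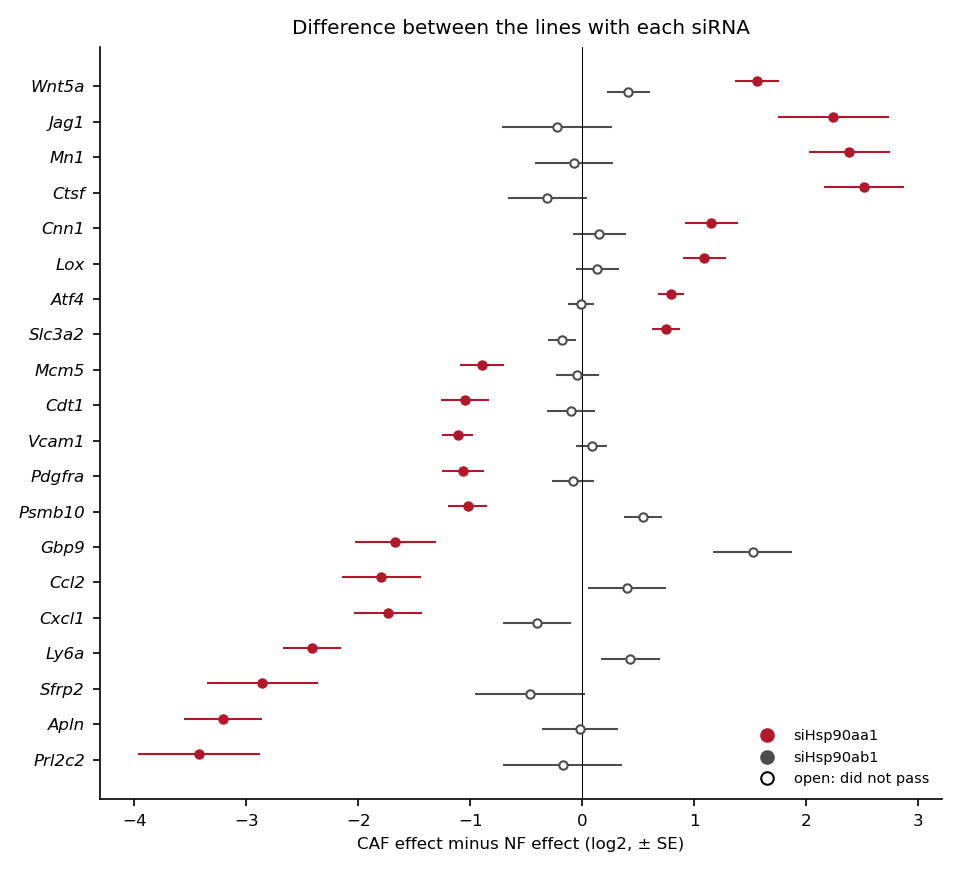
CAF effect minus NF effect (log2, horizontal axis, bars ± SE) of siHsp90aa1 (red) and siHsp90ab1 (grey) for 20 named genes, with filled points where the difference passed. The genes were chosen among those that passed with siHsp90aa1, so that they passed with it is no finding, and both differences share their control libraries.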

How the data were processed

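RNA from cultured mouse fibroblasts was sequenced with a stranded, poly(A)-selected kit, per the labels' protocols. STAR, Salmon and the build GRCm38 are named in the submitters' processing notes, with no versions or roles. The authors deposited estimated counts per gene and TPM values, both for 45706 genes. Of the expected counts 10.89% were not whole and were rounded, by at most 0.5.

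Genes passing filterByExpr by group (minimum count 10, minimum total 15) in all 21 libraries (7 groups of 3) were fitted with edgeR 4.0.16 (R 4.3.3, limma 3.58.1), TMM scaling, 1 coefficient per group and quasi-likelihood tests. Benjamini-Hochberg adjustment ran over all 15230 genes, with a threshold of 0.05. Effects are log2 fold changes, and their SE is the fold change divided by the square root of F. CPM are scaled by effective library size, and differences within a replicate number use log2 CPM with a prior count of 2. TPM served for marker levels only. The steps were tested on simulated data.

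Named genes were the HSP90 genes, the 12 largest differences each way (at least 5 CPM in the highest group and 1 sign in all 3 replicate numbers), the 6 largest each way among genes that passed in opposite directions, and the 4 members of each of 31 lists with the smallest p. Genes and lists were chosen with earlier results of these data known. A gene that the rule names is not reported here. Gbp6 appeared under more than 1 identifier and was left out of its list.

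The labels name the replicate numbers as batches, so the numbers pair libraries. The main fit has no term for this pairing, so its SE and p-values do not use it. Over 9205 genes, 15 of 18 equal-numbered pairs of groups had deviations correlated above 0.1, with a mean of 0.295 (range −0.066 to 0.769), against −0.141 for other numbers. Deviations from a group mean cancel out within the group, so the value for other numbers largely follows from that for equal numbers. Alternatives were a replicate block, RLE size factors, no filter, at least 1 CPM in each of the 4 groups, DESeq2 1.42.0, the 12 libraries alone and each of the 12 libraries left out. Promoters came from RefSeq (GRCm38.p6).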

Additional observations from a re-analysis of the deposited data

Results flagged for a closer look

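The siHsp90aa1 effect differed between CAF with vehicle and NF with TGFβ1 for 832 genes by the test of the difference itself, 372 higher and 460 lower in CAF relative to NF, and 96 of them passed in both lines in opposite directions. Origin and TGFβ1 cannot be told apart in any of these.

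The genes named for the size or the opposite directions of their effects had these differences in log2 units. Among the higher ones, Ctsf differed by 2.51, Smoc2 by 2.47, Mn1 by 2.38, Cmklr1 by 2.33, Jag1 by 2.24, Wnt9a by 2.24 and Phyhip by 2.22. Gm9847 differed by 2.10, Anxa8 by 2.00, Fzd4 by 1.96 and Whrn by 1.90. Among the lower ones, Prl2c3 differed by −3.80, Ggt5 by −3.64, Gbp10 by −3.49, Prl2c2 by −3.43, Hhip by −3.38, Apln by −3.21 and Itgb7 by −3.18. Sfrp2 differed by −2.86, Fam189a2 by −2.79, Clip4 by −2.79, Clec14a by −2.78, Gsta4 by −2.66, Gbp4 by −2.26, Amigo2 by −2.07 and Ankle1 by −1.98. Of the 27 genes named by this rule, of which 1 is not reported here, 23 also passed when the siHsp90ab1 difference was subtracted, a test that shares the siHsp90aa1 libraries.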

How the results depend on the processing

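The count of genes whose siHsp90aa1 effect differed between the lines was 832, and it was 1871 with the replicate block and 1333 in DESeq2 (543 higher and 790 lower). It was 824, 698, 836 and 776 with RLE size factors, no filter on low counts, the 1 CPM minimum and the 12 libraries alone, with 328, 248, 367 and 261 of them higher. With 1 library left out it ran from 453 to 951. In the same fits the CAF count of 3867 ran from 2460 to 4426, the NF count of 4309 from 2911 to 4531, and the count for the difference between the siRNAs, 1358, from 861 to 1515. That last count was 2438 with the replicate block and 1871 in DESeq2. The cause of these moves was not tested. The median difference over all genes was 0.005 with TMM, −0.012 with RLE and −0.041 with the 12 libraries alone.

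Of 142 named genes 91 passed, and 61 of these passed in all 12 fits with 1 library left out. None of the 91 lost its call with the replicate block or in DESeq2, and 11 lost it under another alternative. Without replicate 3 of NF with siHsp90aa1 the difference of Hsp90aa1 itself turned to 0.20 (range −0.61 to 0.20 with 1 library left out), and that of Hsp90b1, 0.068 in all libraries and up to 0.17 with 1 left out, was −0.016 without replicate 1 of CAF with siHsp90aa1, −0.017 without replicate 3 of CAF controls and −0.058 without replicate 1 of NF controls, none of which passed. Differences between genes scarce in a line are limited by counts, as for Hhip and Clip4.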
